A study of Gallus gallus with 40 samples.

Results

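The genes described here are the calpains, their inhibitor and the ligases and transcription factors of muscle atrophy, namely CAPN1, CAPN2, CAPN3, CAPN11, CAST, FBXO32, TRIM63, FOXO1 and FOXO3. They were taken by symbol, and every probe whose RefSeq transcript belongs to one of the 9 symbols was used. Of the 56401 probes of the array, 11 matched, and they covered 8 of the 9 genes. No probe was matched to FBXO32 (atrogin-1) through its RefSeq accession, and no value is given for it. CAPN3, CAPN11 and TRIM63 were each represented by a pair of probes of different transcripts, and the probe of higher mean signal was used for the gene unless the other is named.

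The RNA came from the pectoralis major, the large breast muscle, of male Ross broilers raised on commercial farms, and was hybridized to one-color Agilent chicken arrays, 1 array for each of 40 birds. In the white striping (WS) study, 4 birds were labelled non-WS, 7 mild WS, 6 moderate WS and 4 severe WS, with no age label, and per the study's methods such birds were 7 weeks old. Another label field of these arrays puts the grade under the wooden breast (WB) defect, and the study's methods exclude WB and state that no bird free of striping was found. The 4 arrays labelled non-WS conflict with that statement, and their grade is given here only as labelled. In the WB study, the 49-day-old birds comprised 3 non-WB with mild WS, 4 non-WB with moderate WS, 2 severe WB with mild WS and 3 severe WB with moderate WS. The birds of up to 45 days comprised 4 non-WB with severe WS and 3 severe WB with mild WS, so that striping and WB differ together between them. The farm of each bird was not given.

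Calpains are calcium-dependent cysteine proteases that cut structural proteins of the sarcomere and membrane skeleton at a limited number of sites. CAPN2 is the large subunit of m-calpain, CAPN11 is known in chicken as µ/m-calpain, CAPN3 is the skeletal muscle calpain that binds titin, and CAST (calpastatin) inhibits the ubiquitous calpains. TRIM63 (MuRF1) is a ubiquitin ligase of the sarcomere that marks myofibrillar proteins for the proteasome. FOXO1 and FOXO3 are transcription factors that enter the nucleus when insulin and IGF signaling through AKT is low, and in mammals they switch on the atrophy ligases and genes of autophagy.

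The study designed qPCR primers on the transcripts of the CAPN3 and CAPN11 probes that are used here. They are printed, 5′ to 3′, because they are the only sequences of these genes in the files read. Whether they also match other transcripts of these genes was not tested. Both genes lie on autosomes, CAPN3 on chromosome 5 and CAPN11 on chromosome 3 of the current RefSeq assembly.
CAPN3 forward: gaacaaccagctctacgaca
CAPN3 reverse: tggaatgccctgaacatagc
CAPN11 forward: ggacttgttttgcttgctcc
CAPN11 reverse: cgtgtaacttctcaccctgg

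Signals below are background-subtracted spot intensities after quantile normalization within each study, in arbitrary units. They compare birds for a given probe and not one probe with another, and values of the WS study are not set against those of the WB study. A probe was tested where it was well above background, unflagged and at 20 or more on every array of a study. This held for 10 of the 11 probes in both studies. The exception was the second CAPN3 probe (XM_015287074.1), which was detected on 13 of 21 WS arrays and 14 of 19 WB arrays and ranged only from 12.3 to 96.7. A probe was called when limma, with the slide as a factor, gave a Benjamini-Hochberg adjusted p of 0.05 or less over all probes tested and a fold change of 1.2 or more. Each bird was a separate animal, so the spread is between birds. In whole muscle, a change in the RNA per cell and a change in the share of a cell type cannot be told apart.

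The arrays carried 66.9 to 78.6% of spots well above background, with no saturated spot. The summed signal of the fast fiber genes was 661485 or more on every WB study array and 709173 or more on every moderate and mild WS array. Severe WB breasts carried more RNA of matrix and macrophage markers. The summed signal of 6 fibroblast and matrix genes ranged from 211208 to 559763 in severe WB and from 194886 to 310156 in non-WB, that of 7 macrophage genes from 130167 to 354702 against 136510 to 215326, and that of 4 fast fiber genes from 661485 to 744342 against 720224 to 768131. Their part in the changes given below was not tested. The severe WB bird of up to 45 days numbered replicate 3 stood apart from the others, with the lowest matrix (211208) and macrophage (130167) sums of all severe WB birds and the highest fast fiber sum (744342).

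The TRIM63 probe was among the brightest of the array. It stood between the 32nd and the 345th brightest of all probes in the WB study and between the 33rd and the 429th in the WS study. CAPN1 was near the lower end of detection, at 30.4 to 67.8 in the WB study and 23.7 to 81.5 in the WS study. The paired probes of a gene ran together across birds, with r = 0.998 and 0.991 for TRIM63 and r = 0.954 and 0.964 for CAPN11 in the WS and WB studies. The CAPN2 probe was printed 11 times on each array, and its spots differed by a median coefficient of variation of 3.41%.

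The first question was whether these genes differ between severe WB and non-WB. Over the 3 pairs of groups, CAST and CAPN2 were higher in severe WB, CAPN3 and FOXO1 were lower, and CAPN1, CAPN11, TRIM63 and FOXO3 did not pass the test. In the younger pair the striping grade differs along with WB, so the mean is not a difference of WB alone. In the mean of the 3 differences, 4 of 10 member probes were called, 2 higher and 2 lower, whereas 23.3% of all 34515 probes tested were called, 11.5% higher and 11.7% lower, and 36.5% had an unadjusted p of 0.05 or less with a fold change of 1.2 or more. The share of members is thus not far above that of the array, and the genes are described one by one. Where groups or birds are said below to lie apart, the share of all probes that do so is not given. By construction, quantile normalization gives every array the same distribution of signals. With the authors' values, which had no scaling between the WB arrays, the median of all probes itself moved by 0.29 on the log2 scale and 87.2% of the calls were higher, against 49.6% after quantile normalization.

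CAST, the inhibitor, gave the most even separation. Its signal was 7864 and 7733 in the severe WB birds with mild WS at 49 days, against 4725, 4142 and 4958 in the non-WB birds of that age and striping. With moderate WS at 49 days it was 7773, 4662 and 5058 in severe WB and 3975, 3128, 3837 and 4457 in non-WB. At up to 45 days it was 8963, 7538 and 3695 in severe WB and 4298, 4442, 4212 and 4075 in non-WB. Of the 8 severe WB birds, 6 lay above every non-WB bird of the study, and 7 lay above the mean of the non-WB birds on their own slide. The exception was replicate 3 of up to 45 days, at 3695. The mean log2 fold change was 0.65 (SE 0.16, limma adjusted p = 0.0167), a 1.57-fold increase, and the estimates for the 3 pairs were alike, at 0.76, 0.65 and 0.54 with SE of 0.31, 0.27 and 0.27. The call was kept whichever bird was left out, with fold changes from 0.57 to 0.78. With the authors' values it was 0.87 (adjusted p = 0.0177).

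CAPN2 moved in the same direction as its inhibitor, with a smaller margin. It read 2599 and 2215 in severe WB with mild WS at 49 days and 1213, 1247 and 1636 in the non-WB birds. With moderate WS the values were 1739, 1474 and 1902 in severe WB against 1290.4, 1047, 944 and 1269.9 in non-WB. These 2 pairs of groups did not overlap. At up to 45 days severe WB gave 2328, 1784 and 1071, which spanned the 1971, 1139, 1636 and 1722 of non-WB. The mean log2 fold change was 0.52 (SE 0.16, limma adjusted p = 0.0338), with 0.83, 0.64 and 0.09 in the 3 pairs (SE 0.30, 0.27 and 0.27). This call was not firm. It was lost in 11 of the 19 fits that left out 1 bird, where the fold change ranged from 0.44 to 0.62 and the adjusted p reached 0.0890.

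CAPN3, the calpain of skeletal muscle, was lower. In severe WB with mild WS at 49 days it read 2032 and 2110, below the 5113, 5237 and 5122 in non-WB. At up to 45 days it read 2434, 2944 and 5224 in severe WB against 5263, 7509, 7180 and 5311 in non-WB, again with no overlap although replicate 3 came close. These non-WB birds had severe WS and the severe WB birds mild WS, so WB and striping grade cannot be told apart there. With moderate WS at 49 days 2 severe WB birds were low, at 2962 and 3823, and the other, at 8792, was the highest of the whole study, above the 4032, 4765, 5259 and 6228 of non-WB. The mean log2 fold change was −0.77 (SE 0.21, limma adjusted p = 0.0208), and the 3 pairs gave −1.32, −0.01 and −0.97 (SE 0.38, 0.34 and 0.34). In all, 6 of the 8 severe WB birds lay below every non-WB bird. The call was lost without either severe WB bird with mild WS at 49 days (adjusted p = 0.0535 and 0.0540) and with the authors' values (−0.51, adjusted p = 0.0563).

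FOXO1 was also lower, and it had the smallest adjusted p of the 8 genes in the mean. At 49 days with mild WS it was 1082 and 1353 in severe WB against 5522, 4270.1 and 3047 in non-WB. At up to 45 days it was 2396, 1773 and 2408 in severe WB against 2665, 2569, 3894 and 3477 in non-WB. The groups did not overlap in either pair, but the share of all probes that separate them is not given. With moderate WS it was 2029.9, 2860.1 and 1872 in severe WB, within reach of the 3362, 2457, 2238 and 3485 of non-WB. The mean log2 fold change was −0.83 (SE 0.15, limma adjusted p = 0.00740), a 1.78-fold decrease. The pairs were uneven, at −1.78 with mild WS at 49 days, −0.26 with moderate WS and −0.46 at up to 45 days (SE 0.29, 0.26 and 0.26). The mean thus rests largely on the pair with 2 severe WB birds. Of the 8 severe WB birds, 7 lay below the non-WB mean of their slide. The call was kept in each of the 19 fits without 1 bird, at −0.91 to −0.76, and with the authors' values (−0.55, adjusted p = 0.0331).

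**Figure D1:**
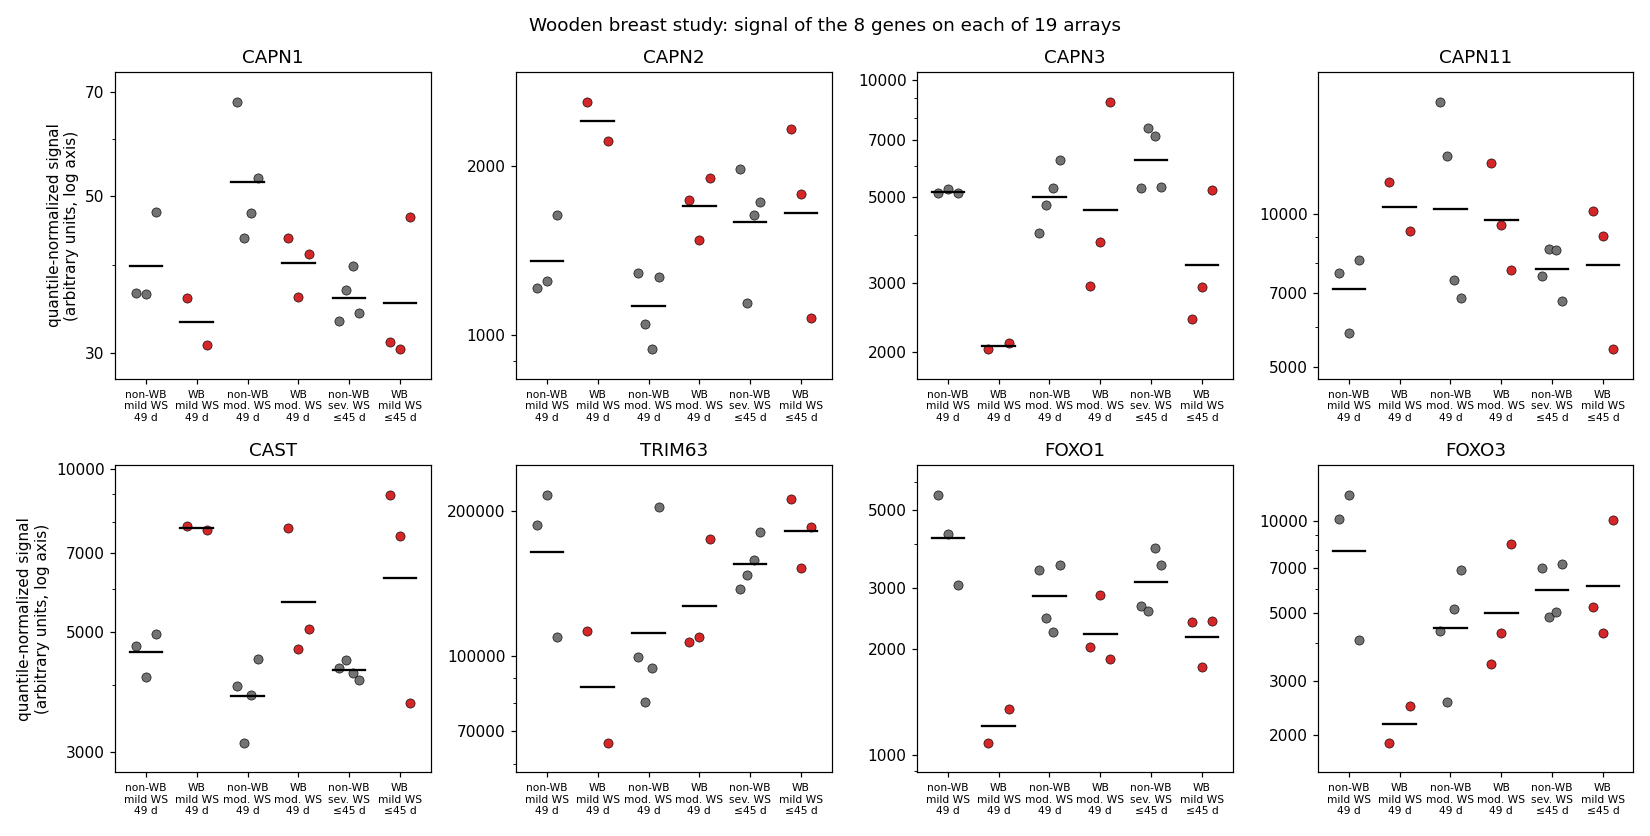
Quantile-normalized signal (arbitrary units, log axis) of the 8 genes on each of the 19 WB study arrays. Grey points are non-WB birds, red points severe WB birds, and bars the group means on the log scale. CAST lies above every non-WB bird in 6 of 8 severe WB birds, and CAPN3 lies below every non-WB bird in 6 of 8.

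TRIM63, FOXO3, CAPN11 and CAPN1 were not called in the mean. TRIM63 had a mean log2 fold change of −0.05 (SE 0.16, limma adjusted p = 0.853), which turned to 0.06 with the authors' values and was −0.20 with scaling to the 75th percentile. FOXO3 had −0.46 (SE 0.27, adjusted p = 0.218) and CAPN1 had −0.23 (SE 0.12, adjusted p = 0.191). For CAPN11 the mean was 0.08 (SE 0.18, adjusted p = 0.778) by one probe and 0.15 (SE 0.15, adjusted p = 0.467) by the other. Scaling to the 75th percentile turned the first to −0.01. The signals of CAPN11 overlapped throughout, at 5423 to 12552 in severe WB and 5825 to 16594 in non-WB. Without severe WB replicate 3 of up to 45 days, CAPN1 was called as well, at −0.33 (SE 0.11, adjusted p = 0.0306). It was also called with detection asked for in only 1 group, at −0.44 (SE 0.15, adjusted p = 0.0493), where the share of all probes called is not given. Over the fits without 1 bird, calls in the mean on the whole array fell in some and rose to as many as 13163 of 34515 probes, against 8028 with every bird.

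The pair of 49-day-old groups with mild WS showed the largest changes. Here both FOXO genes and CAPN3 were called lower in severe WB, and TRIM63 by its second probe only. By the probe used for each gene, 3 of 8 genes were called. Of 10 member probes, 4 were called, all lower, whereas 10.6% of all probes were called, 4.67% higher and 5.88% lower. An unadjusted p of 0.05 or less with a fold change of 1.2 or more was found for 7 member probes, both of TRIM63 among them, and for 33.1% of all probes. The log2 fold change was −1.78 for FOXO1 (SE 0.29, limma adjusted p = 0.0102), −1.88 for FOXO3 (SE 0.50, adjusted p = 0.0328) and −1.32 for CAPN3 (SE 0.38, adjusted p = 0.0433). With the authors' values the median of all probes moved by 0.70 in this pair and 94.5% of the calls were higher, against 44.2%, yet FOXO1 and FOXO3 stayed lower and called, at −1.11 and −1.27. CAPN3 was then not called (−0.72, adjusted p = 0.111), and CAPN2 (1.48, adjusted p = 0.0175) and CAST (1.27, adjusted p = 0.0280) were called higher, as was the second CAPN11 probe (1.01, adjusted p = 0.0423). Neither TRIM63 probe was called with these values (−0.70 and −0.68, adjusted p = 0.0747 and 0.0638).

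FOXO3 read 1885 and 2482 in these severe WB birds and 10162, 12155 and 4092 in the non-WB birds. The groups did not overlap, and the non-WB birds themselves spread from 4092 to 12155. TRIM63 read 113097 and 66309.9 in severe WB and 186738, 216062 and 109774 in non-WB, and the groups overlapped by 1 bird. Its pair of probes fell on different sides of the threshold with nearly the same estimate, at −0.92 (SE 0.30, limma adjusted p = 0.0623) and −0.91 (SE 0.27, adjusted p = 0.0483). Scaling to the 75th percentile gave −1.33 (adjusted p = 0.0276) for the first probe. Over all alternatives that kept every bird its estimate ranged from −1.33 to −0.70 and its adjusted p from 0.0276 to 0.300, and without 1 bird the estimate ranged from −1.31 to −0.55. In the 19 fits without 1 bird, the call of CAPN3 in this pair was lost in 10, that of FOXO3 in 4 and that of FOXO1 in 2. The CAPN3 call was thus not firm, and the calls of this pair on the whole array also fell to far fewer in some of these fits. The calls of this pair rest on 2 severe WB birds, and none of the 4 was kept when either was left out.

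In neither of the other pairs was a member called, and 0% of all probes were called there. With moderate WS at 49 days, 2 member probes passed these limits without adjustment (p of 0.05, fold change of 1.2), those of CAPN2 (0.64, limma adjusted p = 0.384) and CAST (0.65, adjusted p = 0.389), where 12.1% of all probes did. At up to 45 days it was CAPN3 alone (−0.97, adjusted p = 0.433), where 10.8% of all probes did. The methods' t-test gave 0 member calls in both, with no share of all probes given beside it. Without severe WB replicate 3 the younger pair gave 2 member calls, CAST at 0.93 (SE 0.20, adjusted p = 0.0150) and CAPN3 at −1.29 (SE 0.34, adjusted p = 0.0282), among 4316 probes called on the whole array.

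The direction of TRIM63 and FOXO3 was not the same in the 3 pairs. TRIM63 had −0.92 with mild WS at 49 days, 0.48 (SE 0.27) with moderate WS at 49 days and 0.30 (SE 0.27) at up to 45 days. FOXO3 had −1.88, 0.37 (SE 0.45) and 0.14 (SE 0.45). With moderate WS, TRIM63 read 107255, 109774 and 175454 in severe WB, above the 99494, 80587 and 94650.1 of the non-WB birds on the same slide, whereas the other non-WB bird, on another slide, read 204094. The differences between the pairs were tested. The pair with mild WS at 49 days, that of the largest changes, was set against the mean of the other pairs in a contrast that was not planned. Here 0 member probes and 0.00579% of all probes were called. An unadjusted p of 0.05 or less with a fold change of 1.2 or more was found for 4 member probes, both of TRIM63 among them, and for 12.1% of all probes. The smallest adjusted p of a member was 0.195, for FOXO1 (−1.42, SE 0.34). When the younger pair was set against the 49-day pairs, 0 member probes were called, 0 had an unadjusted p of 0.05 or less where 4.21% of all probes did, and the smallest adjusted p was 0.976. A difference between the pairs was thus not shown for these genes, nor was its absence.

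**Figure D2:**
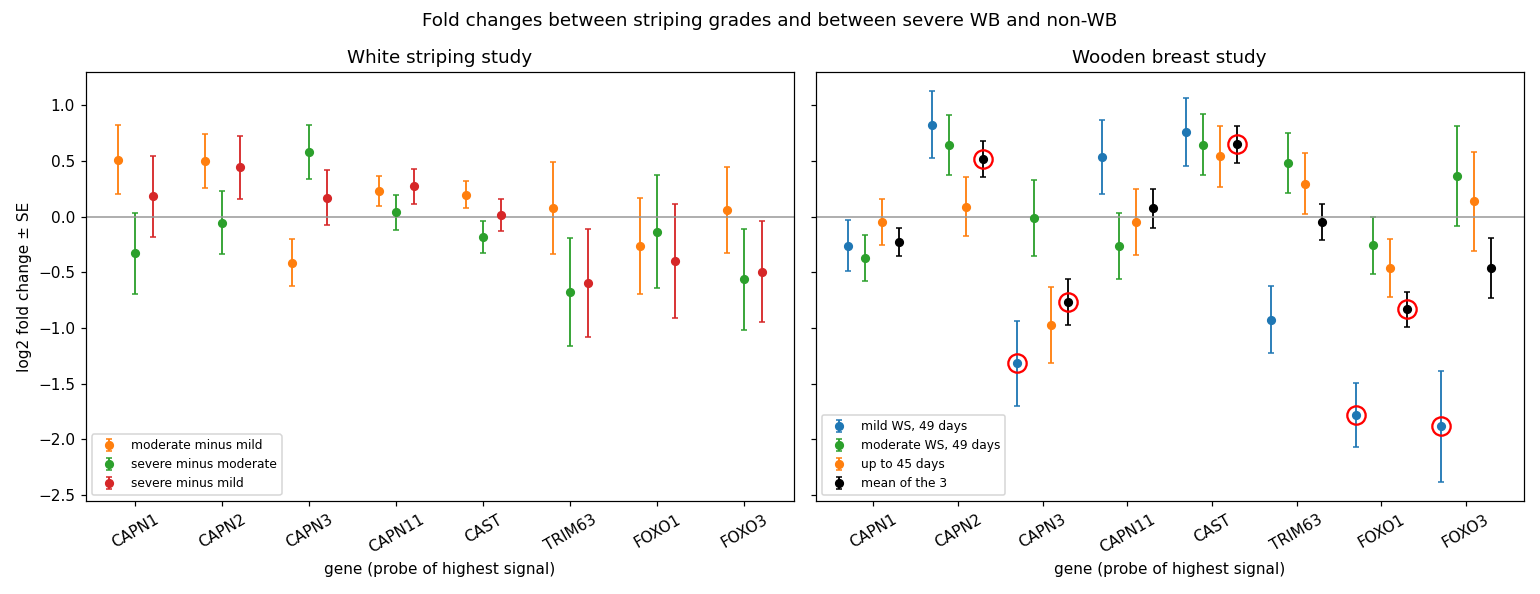
Log2 fold changes with their SE for the 8 genes, between striping grades in the WS study and between severe WB and non-WB in each pair of groups and in their mean in the WB study. Red rings mark calls, which stand at CAPN2, CAPN3, CAST and FOXO1 in the mean and at CAPN3, FOXO1 and FOXO3 in the pair with mild WS at 49 days.

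The second question was whether the genes change with the grade of striping. Among birds with WS none of them was called. Moderate against mild, severe against moderate and severe against mild WS each gave 0 of 10 member probes and 0% of the 32627 probes tested. In each of these comparisons 1 member probe had an unadjusted p of 0.05 or less with a fold change of 1.2 or more, where 7.29%, 7.79% and 9.13% of all probes did. The methods' t-test gave 0 member calls, with no share of all probes given beside it. Against non-WS, mild, moderate and severe WS also gave 0 member calls, with 0.00306%, 0% and 0.00306% of all probes called and with 2, 0 and 0 member probes past the same limits, where 14.9%, 14.5% and 5.38% of all probes were.

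CAPN3 differed most between the grades in moderate and severe WS. It read 7416, 5119.8, 5030.2 and 5763 in severe WS, and in moderate WS the lowest, median and highest were 1469, 4060.4 and 4361. Every severe bird lay above every moderate bird, but the log2 fold change of 0.58 (SE 0.25, unadjusted p = 0.0301) had a limma adjusted p of 0.581. The share of all probes that separate these grades is not given. Without moderate WS replicate 5, the bird at 1469, it was 0.47 (SE 0.20). Mild WS gave 3510 to 6751 with a median of 4009 and non-WS gave 4781, 4926, 6143 and 4569.9, so that the order of the grades was not that of severity.

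CAPN11 was lower in mild WS than in non-WS by 0.41 on the log2 scale with both probes (SE 0.16 and 0.15, unadjusted p = 0.0175 and 0.0125), with limma adjusted p = 0.229 and 0.212. Its signal was 4495, 4527, 6002 and 5136 in non-WS and 3770 to 6846 in mild WS with a median of 4308, and the groups overlapped. Markers of other cell types differed between the same groups. The summed signal of 4 erythrocyte genes was 18218 to 42179 in mild WS and 50943 to 69265 in non-WS, and that of the fast fiber genes 716118 to 777204 and 784460 to 790253, both without overlap. The matrix sum was 140912 to 263786 in mild WS against 128690 to 155487, and the macrophage sum 81893 to 163900 against 86442 to 103470. Their part in the CAPN11 difference was not tested. The difference depended on the slide term, at −0.10 (adjusted p = 0.890) without it and −0.46 (adjusted p = 0.242) with the authors' values. The moderate birds gave 3606 to 11237 with a median of 4651, and the severe birds gave 3657, 5095, 5297 and 4316.

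The remaining genes varied as much within a grade as between grades. TRIM63 read 217583, 42761, 51587 and 82519 in severe WS, a range that covers nearly that of all 21 birds, from 40626 to 217583. In non-WS it read 62651, 66248, 44732 and 154131. The same bird of each group was high for FOXO1, which read 6068, 1316, 2606 and 3012 in severe WS and 1974, 1133, 1689.7 and 5140.3 in non-WS, and for FOXO3, at 8271, 2488, 3031 and 5474 in severe WS and 4641, 4954, 3746 and 7385 in non-WS. FOXO1 ranged 8.00-fold over the 21 birds, from 853 to 6822, and FOXO3 8.28-fold, from 1473 to 12193, whereas CAST ranged 1.81-fold, from 2534 to 4597. CAST was thus the steadiest of the 8 genes in this study. CAPN2 lay between 469 and 1891. The SE of a log2 fold change between grades was 0.39 to 0.53 for FOXO1, FOXO3 and TRIM63 and 0.12 to 0.16 for CAST and CAPN11.

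**Figure D3:**
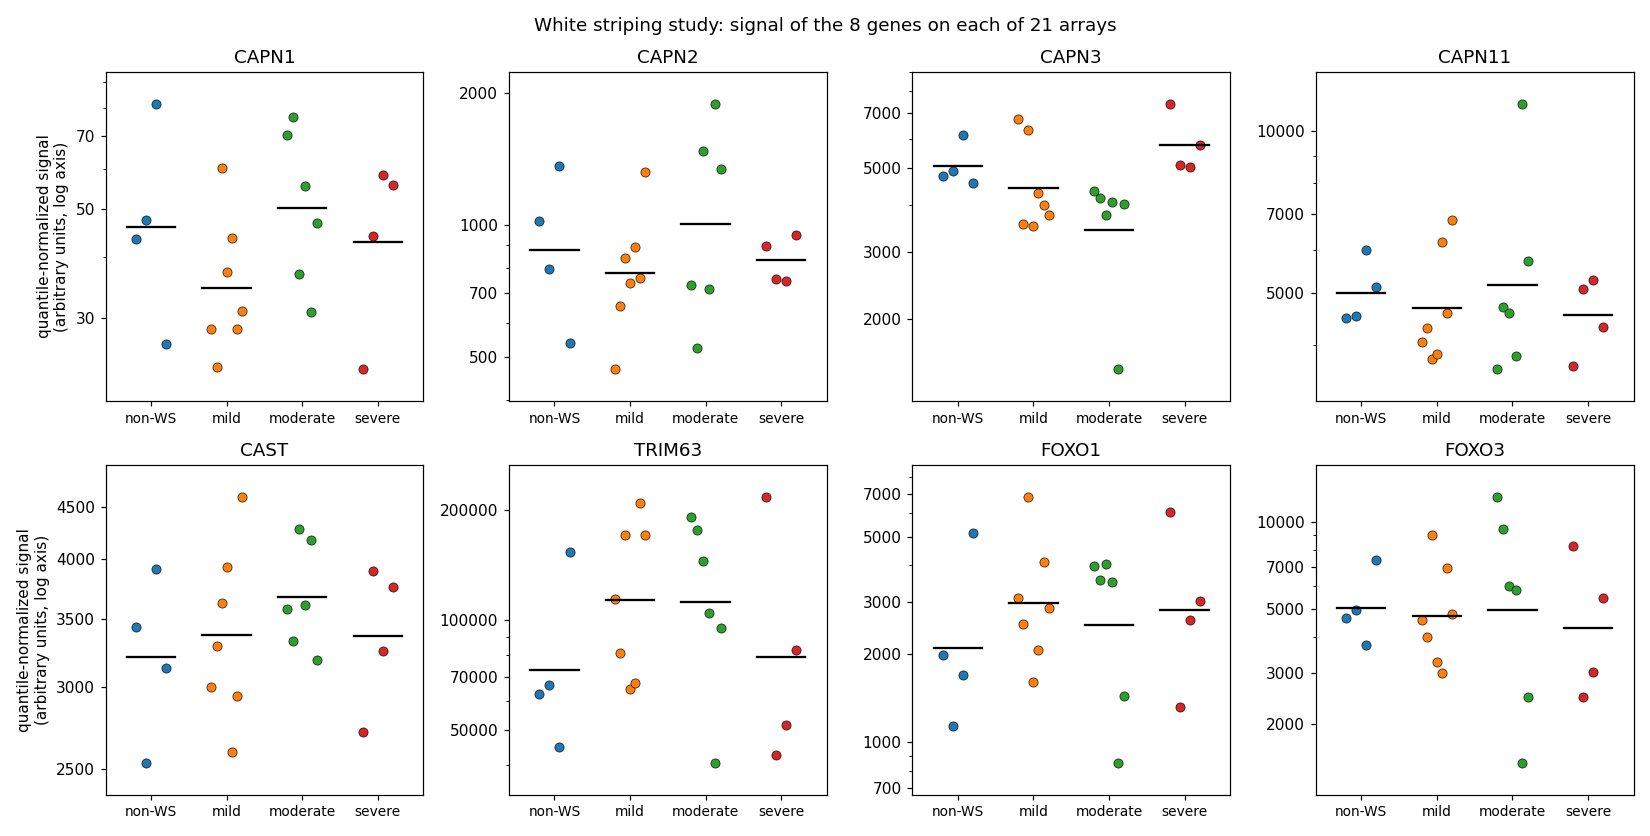
Quantile-normalized signal (arbitrary units, log axis) of the 8 genes on each of the 21 WS study arrays by striping grade, with bars at the group means on the log scale. CAPN3 is higher in every severe than in every moderate bird, while TRIM63, FOXO1 and FOXO3 range over most of their scale within single grades.

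Much of the variation of TRIM63, FOXO1 and FOXO3 was between birds of the same grade, and it was shared. In all, 5 pairs of genes were compared across birds in each study, 10 relations, on the log2 scale, with p-values from 100000 permutations, two-sided, adjusted over the 10. Where slide or group means were removed, the remaining values were permuted over all birds. This ignores that they are tied within a slide or group, so those p-values tend to be too small. The pairs of CAST were planned. Those of TRIM63 with FOXO1, FOXO3 and CAPN3 were not, and were run because the planned pairs with FBXO32 had no matched probe for that gene. In the WS study TRIM63 rose and fell with FOXO1 (r = 0.838, rho = 0.850, n = 21, permutation p = 2e-05, adjusted p = 0.0001, for rho 2e-05 and 0.0001) and with FOXO3 (r = 0.832, rho = 0.825, permutation p = 2e-05, adjusted p = 0.0001, for rho 2e-05 and 0.0001). Without the 2 birds farthest from the median of TRIM63, r was 0.787 and 0.795. With the group means removed it was 0.870 and 0.886. On the 2 slides that hold 8 birds each it was 0.920 and 0.909 for FOXO1 and 0.906 and 0.924 for FOXO3.

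In the WB study the relation with FOXO3 was again present (r = 0.784, rho = 0.780, n = 19, permutation p = 8e-05 and 0.00012, adjusted p = 0.000267 and 0.0004), and r was 0.701 without the 2 farthest birds and 0.679 with the group means removed. Within the 3 slides r was 0.861, 0.217 and 0.855. The slides hold in turn the pair with moderate WS, the younger pair and the pair with mild WS at 49 days. The last also holds 1 non-WB bird of each other pair. Slide and pair can thus not be told apart, and r within a slide keeps the difference between severe WB and non-WB. The relation with FOXO1 was weaker (r = 0.481, rho = 0.441, permutation p = 0.0375 and 0.0606, adjusted p = 0.0535 and 0.101). It differed between the slides, and so between the pairs of groups, at −0.493, −0.0992 and 0.790. With slide means removed it passed narrowly by r (0.515, permutation adjusted p = 0.0426), a p-value that tends to be too small, but not by rho (0.379, adjusted p = 0.138). Without the 2 farthest birds r was 0.368. TRIM63 and CAPN3 were not related at the threshold in either study (r = 0.257 with rho = 0.0682 and r = 0.400 with rho = 0.344, permutation p = 0.274 and 0.767 in the WS study and 0.0910 and 0.149 in the WB study, adjusted p = 0.304, 0.767, 0.114 and 0.186). Within the slides r was 0.224 and −0.121 in the WS study and 0.612, −0.552 and 0.800 in the WB study. This relation depended on the setting. In the WB study it passed with scaling to the 75th percentile (0.559) and with slide means removed (0.483). In the WS study it passed with that scaling (0.442) and with group means removed (0.540). With group means kept, r in the WS study turned from 0.257 to −0.234 without the 2 farthest birds.

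**Figure D4:**
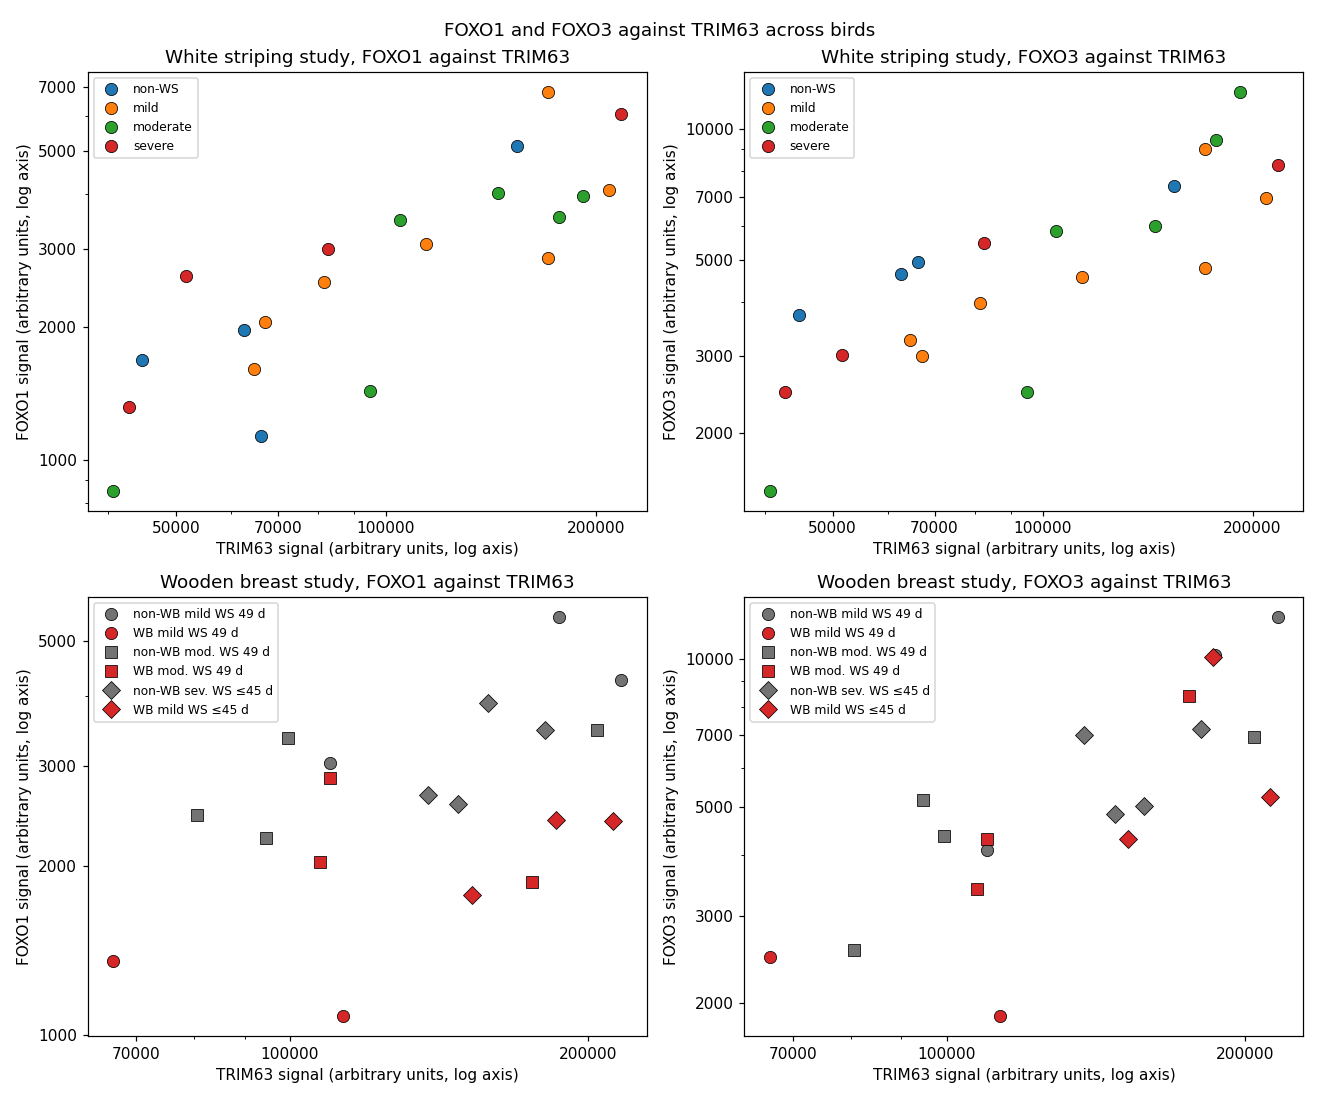
FOXO1 (left) and FOXO3 (right) signal against TRIM63 signal for each bird of the WS study (top, 21 birds) and the WB study (bottom, 19 birds), in arbitrary units on log axes. Points rise together in both WS panels (r = 0.838 and 0.832) and in the WB panel of FOXO3 (r = 0.784), and scatter in the WB panel of FOXO1 (r = 0.481).

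CAST and CAPN2, inhibitor and protease, rose and fell together in the WB study (r = 0.782, rho = 0.765, n = 19, permutation p = 0.00012 and 0.00027, adjusted p = 0.0003 and 0.000675). With the group means removed r was 0.651 (permutation adjusted p = 0.0079), but rho was 0.477 (adjusted p = 0.0806), which did not pass. Without the 2 farthest birds r was 0.680. Within the 3 slides, each with its own pair of groups and with the group difference kept, r was 0.779, 0.701 and 0.850, with rho of 0.886, 0.714 and 0.536. In the WS study it was 0.482 (rho = 0.392, n = 21, permutation p = 0.0272 and 0.0804, adjusted p = 0.0468 and 0.115), with −0.0452 and 0.821 on the 2 slides of 8 birds. It was 0.513 (adjusted p = 0.0426) with slide means removed, and 0.452 without the 2 farthest birds, which no longer passed (adjusted p = 0.105). CAST and CAPN1 gave r = −0.501 in the WB study (rho = −0.479, permutation p = 0.0281 and 0.0399, adjusted p = 0.0468 and 0.0798), with −0.251, −0.812 and −0.403 within the slides. That relation did not pass without the 2 farthest birds (r = −0.415, adjusted p = 0.164) or with the group means removed (r = −0.228, adjusted p = 0.390). In the WS study it was 0.165 (rho = 0.206, permutation p = 0.472 and 0.366, adjusted p = 0.472 and 0.407).

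The named genes whose profile over birds was most like that of each member were sought among 32169 probes tested in both studies. The smaller of the correlations over 21 and 19 birds was used. Probes without a symbol and those of genes with only a LOC identifier were left out. For TRIM63 these were FBXO30 (r = 0.848 and 0.846), a ubiquitin ligase, PDK4 (0.840 and 0.838), the kinase that restrains pyruvate dehydrogenase, and FAM134B (0.821 and 0.830), a receptor for autophagy of the endoplasmic reticulum. For FOXO3 they were CEBPD (0.877 and 0.911), RAB40B (0.877 and 0.875) and FKBP5 (0.850 and 0.868), and for FOXO1 they were PDE4D (0.827 and 0.839), USP44 (0.798 and 0.824) and KLF6 (0.803 and 0.774). For CAPN2 they were the cytoskeletal genes TPM4 (0.804 and 0.819) and MYH10 (0.775 and 0.840) with GFPT1 (0.775 and 0.822), the entry enzyme of hexosamine synthesis. CAST was most like DNAJC14 (0.839 and 0.864), the glycolytic enzyme gene ENO1 (0.852 and 0.83) and FANCC (0.826 and 0.887). CAPN3 was most like MARK1 (0.841 and 0.834), PPP2R2A (0.857 and 0.824) and UQCRQ (0.819 and 0.844), a subunit of respiratory complex III. CAPN11 was most like TLN1 (0.794 and 0.847), the gene of talin, CDC42 (0.786 and 0.778) and LYPLA2 (0.790 and 0.762). CAPN1 had the weakest likenesses, led by KLHL18 (0.682 and 0.694).

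The wider pathway was described by lists of genes. Their counts stand beside the shares of all probes called in the same comparison, 11.5% higher and 11.7% lower in the mean and 4.67% higher and 5.88% lower with mild WS at 49 days. Each list gene was taken by its brightest probe alone, so counts of genes stand beside shares of probes. Whether the other probes of a gene agree, as for CAPN15 with 8 probes, is not given. Among other calpains and the small subunit, 5 of 11 genes could be tested, and in the mean of severe WB minus non-WB 1 was higher and 1 lower, CAPN15 (0.38, SE 0.08, limma adjusted p = 0.0111) and CAPN10 (−0.35, SE 0.11, adjusted p = 0.0398). Among other muscle ubiquitin ligases and deubiquitinases, 0 of 18 tested genes were higher and 3 were lower, where 11.7% of all probes were lower, with a median log2 fold change of 0.01 against −0.01 for all probes. They were ASB2 (−1.32, SE 0.27, adjusted p = 0.00925), which targets filamin, UBR2 (−0.53, SE 0.13, adjusted p = 0.0162), a ligase of the N-end rule, and CUL3 (−0.38, SE 0.12, adjusted p = 0.0397), a scaffold of cullin ligases. ASB2 fell most with mild WS at 49 days, by 2.95 (SE 0.50, adjusted p = 0.0114), where UBE2B, a ubiquitin-conjugating enzyme, was also lower (−1.20, SE 0.35, adjusted p = 0.0424). CAPN15 was higher in that pair (0.54, SE 0.15, adjusted p = 0.0394). The calls of list genes in that pair, here and below, rest on 2 severe WB birds. No fit without 1 bird is given for them.

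Of the genes from insulin and IGF to FOXO, 20 were tested, and 3 were higher and 0 lower in the mean, where 11.5% of all probes were higher and 11.7% lower. They were IGF2 (1.03, SE 0.25, limma adjusted p = 0.0150), MSTN (0.75, SE 0.22, adjusted p = 0.0263), the gene of myostatin, which restrains muscle growth, and PIK3R1 (0.50, SE 0.16, adjusted p = 0.0385), the regulatory subunit of PI3-kinase. With mild WS at 49 days IGF2 was higher by 2.04 (SE 0.46, adjusted p = 0.0220), and IRS2 (−1.58, SE 0.44, adjusted p = 0.0382), PIK3CA (−0.91, SE 0.20, adjusted p = 0.0204) and KLF15 (−2.37, SE 0.52, adjusted p = 0.0204) were lower.

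Of the 19 autophagy and lysosome genes tested, 2 were higher and 1 lower in the mean, no larger a share than the 23.3% of all probes called. In the mean CTSB, the lysosomal protease cathepsin B (0.99, SE 0.21, limma adjusted p = 0.00962), and ATG4B, which processes LC3 proteins (0.57, SE 0.10, adjusted p = 0.00572), were higher, and ULK1, the kinase that starts autophagy (−0.94, SE 0.16, adjusted p = 0.00537), was lower. With mild WS at 49 days ATG4B was higher (0.88, adjusted p = 0.0185) and ULK1 (−1.40, adjusted p = 0.0184) and GABARAPL1 (−1.61, adjusted p = 0.0427) were lower. Cathepsin B is also abundant in macrophages, and 6 of 7 macrophage genes were called higher in the same mean, as were 5 of 6 matrix genes. The part of these cells in the CTSB value was not tested.

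Of 11 tested structural substrates and partners of calpains, 3 were higher and 1 lower in the mean, where 23.3% of all probes were called. The muscle ankyrin repeat genes ANKRD2 (2.36, SE 0.60, limma adjusted p = 0.0174) and ANKRD1 (0.63, SE 0.21, adjusted p = 0.0426) and the Z-disc gene MYOZ2 (2.00, SE 0.50, adjusted p = 0.0161) were higher, and the Z-disc gene LDB3 was lower (−1.04, SE 0.18, adjusted p = 0.00631). With mild WS at 49 days LDB3 alone of the list was called, at −1.78 (SE 0.34, adjusted p = 0.0153). ANKRD1 and ANKRD2 proteins bind titin near the site of CAPN3. In the WS study none of the genes of these lists was called in a comparison between striping grades. Those of smallest unadjusted p in moderate against mild WS were ANKRD1 (1.07, SE 0.23, unadjusted p = 0.000294, adjusted p = 0.482), TRAF6 (−0.36, SE 0.11, unadjusted p = 0.00624) and LDB3 (−0.41, SE 0.13, unadjusted p = 0.00633), both with an adjusted p of 0.553.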

How the data were processed

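Members and lists were chosen with earlier results of these data known. Single-color arrays of the pectoralis major from 40 birds, 21 WS and 19 WB, were read. The authors scanned them and deposited Feature Extraction 10.7.1.1 output with signal intensities per spot. The value table deposited by the authors, also in intensities, equals the processed signal for the WB study and holds normalized values for the WS study, for which the methods give quantile normalization and then ComBat. It served as an alternative. Symbols were assigned to 25956 of 56401 probes through RefSeq accessions. The processed signal was averaged over unflagged spots, quantile normalized within each study, log2 transformed and fitted with limma 3.58.1 (R 4.3.3) over all groups of a study. The number of birds limits the precision. Mild WS replicate 7, alone on its slide in the WS fit, does not inform it, and with the slide as a factor the WB pairs rest on 2 against 3, 3 against 3 and 3 against 3 birds. Group and array position on a slide cannot be told apart. Every member is named by its brightest probe. A fold change is named where called or at an unadjusted p of 0.05 with a fold change of 1.2, and list genes where called, otherwise up to 2 by smallest p; the other members' values are added for completeness. Like genes were the 3 of largest smaller correlation. The procedure was tested on simulated data with 200 changed probes. Alternatives were normexp with an offset of 50, scaling to the 75th percentile, the authors' values, other detection filters, a fit without the slide, slides as random effects, replicate number as a block, pairs of groups alone, the methods' t-test, an FDR of 0.2, no fold change criterion, averaged probes and each bird left out. Permutations used SciPy 1.17.1.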

Additional observations from a re-analysis of the deposited data

Results flagged for a closer look

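In 66 sets of probe and group of 4 to 10 birds, a single bird was searched for whose gap to the nearest other exceeded Dixon's critical value, and 3 were found, while chance flags about 1 in 20. Moderate WS replicate 5 was the low bird for CAPN3, at 1469 against 3772 to 4361 in the other 5 birds, and the high bird for CAPN11, at 11237 against 3606 to 5722. This bird also had the highest matrix (386660) and macrophage (214073) sums of the 6 moderate birds. Non-WB with moderate WS replicate 4, which lay on another slide than the other 3 birds of its group, was the high bird for TRIM63, at 204094 against 80587 to 99494.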

How the results depend on the processing

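Of the member fold changes that were called or had an unadjusted p of 0.05 or less, none changed sign under the alternatives run, whereas the uncalled means of TRIM63 and CAPN11 did with scaling. Without 1 bird 255 fits kept their side of the threshold, 29 lost and 5 gained the call, and under other settings 144, 8 and 5 did. Many of the fits that kept their side were of fold changes never called, which could not lose a call. Of 19 fits without 1 bird, the mean lost the call of CAPN2 in 11 and that of CAPN3 in 2. The pair with mild WS at 49 days lost that of CAPN3 in 10, that of FOXO3 in 4 and that of FOXO1 in 2. For mild WS at 49 days, the 4 member calls became 1 with no detection filter, 1 with the methods' t-test and 8 at an FDR of 0.2, and 0 to 7 without 1 bird. With the replicate number as a block there were 2. Same-numbered birds of different groups had a median r of 0.0657 in the WS and −0.00294 in the WB study. Differently numbered birds had −0.0163 and 0.00487. A pairing by number was thus not shown, and as the numbers go with the slide in the WS study, these values cannot exclude it. The 4 calls of the mean became 2 to 5, and the 0 of the younger pair 0 to 2, without 1 bird. At an FDR of 0.2 the unplanned contrast of the mild WS pair against the others gave 1 member call. Calls on the whole array moved as well. With mild WS at 49 days there were 3642 of 34515 probes with every bird. Without 1 bird this count fell to far fewer in some fits and rose to as many as 8194. In the mean it fell below 8028 in some fits and rose to as many as 13163. In the younger pair it reached 4316, against 0. Under the other settings the share of all probes is not set beside these member counts, which are thus no result about these genes alone. Scaling to the 75th percentile raised r of TRIM63 with CAPN3 to 0.442 (WS) and 0.559 (WB), and with FOXO1 to 0.564 (WB), past the threshold. Removing slide means did so in the WB study for FOXO1 (0.515) and CAPN3 (0.483), and removing group means in the WS study for CAPN3 (0.540). The p-values after removal of means tend to be too small. With group means kept, TRIM63 with CAPN3 in the WS study gave −0.234 without the 2 farthest birds. CAST with CAPN2 in the WS study missed the threshold with group means removed (0.461) or without the 2 farthest birds (0.452), and CAST with CAPN1 in the WB study with slide means (−0.469) or group means (−0.228) removed or without the 2 farthest birds (−0.415). The causes were not tested. Spot signal over background, 4.04 to 12.6 in the median, limits dim probes such as CAPN1.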
